A study of Mus musculus with 8 samples.

Results

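The comparison set 2 libraries of whole testis RNA from 20-day-old mice homozygous for an IAP allele of Dnmt3c (genotype IAP/IAP, called mutant) against 2 libraries from heterozygous mice of the same age (IAP/WT, called control). These were 4 of the 8 libraries of the series, chosen by genotype and age in their titles, and the age was 20 days post partum (dpp). All animals were male, on a hybrid background of C3H/HeJ and C57BL/6J, and the controls carried the same allele on 1 chromosome. IAP is the name of an endogenous retrovirus family of the mouse, and the allele is carried in the germ line rather than driven by a Cre. Whether each library stands for its own animal is not stated in the labels, and the p-values therefore cover the spread among these 4 libraries and nothing beyond it.

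Dnmt3c encodes a rodent DNA methyltransferase that acts in fetal male germ cells and methylates the promoters of young retrotransposons. In the first wave of spermatogenesis, spermatogonia enter meiosis together, and at this age the most advanced cells of a normal testis are late spermatocytes and the first round spermatids. Pachytene spermatocytes switch on a large set of genes for sperm, many of them copies of widely expressed genes, and silence the X and Y chromosomes. In bulk RNA, fewer cells of a type and less RNA per cell cannot be told apart.

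Reads on genes ran from 88996175 to 155742823 a library, and 17194 genes and 888 repeat families were measured. Values are the deposited log2(normalised reads + 1), on 1 scale for genes and families, and a feature passed the test at a limma adjusted p under 0.05. Higher calls numbered 4539 genes (26.4%) and lower calls 5689 (33.1%), against which the counts of members below are read. Without control replicate 1, 2945 genes were higher and 4727 lower. Scaling to total gene reads shifted the median gene by 0.59 and gave 8428 higher against 3796 lower calls. Scaling by the families shifted it by -0.11 and gave 2972 against 5537. The level of Dnmt3c was not analysed here, and the genotypes stand as labelled. Both mutants lay above both controls in 41.2% of genes and below both in 41.2%, and for families in 36.9% and 26%.

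Marker lists of 14 cell types and tissues were counted in the same fit. All 14 measured spermatid markers and all 17 measured markers of pachytene and later spermatocytes fell, with medians of -6.05 and -4.81. The pachytene markers took 1.31% and 1.23% of gene reads in the controls and 0.0947% and 0.0659% in the mutants. Sertoli cell markers, from the somatic cells that nurse the germ cells, rose in 22 of 24 cases and fell in 1, with a median of 1.00. They took 0.322% and 0.363% of gene reads in the controls and 0.933% and 0.997% in the mutants. Of markers of undifferentiated spermatogonia 9 of 18 rose and 1 fell, and of differentiating ones 8 of 10 rose and 1 fell. Early meiotic markers fell in 14 of 25 cases and rose in 6 (median -0.64), but with total gene reads 10 rose and 6 fell. Peritubular myoid markers rose in 5 of 10 cases, and the other 5 did not pass. The mutant libraries were far apart in these markers, by a median log2 difference of 1.31. They held 0.153% of gene reads in mutant replicate 1 and 0.0757% in mutant replicate 2, so this rise is uncertain. Most members of the remaining lists did not pass: 3 of 12 Leydig cell, 2 of 12 endothelial, 4 of 14 leukocyte, 2 of 9 duct epithelium, 1 of 6 skeletal muscle, 0 of 7 fat pad and 0 of 3 erythroid markers rose, and 1 endothelial, 1 leukocyte and 1 duct marker fell. The part of these cell types in the results that follow was not tested.

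The genes described first had the widest gap between the nearest libraries of the genotypes, so that their separation follows from the choice. Rises of at least 4-fold were few, at 168 genes (0.977%), and all 12 named here were among them. Among the 12 rises, Extl1, which encodes a glycosyltransferase of the exostosin family, lay at log2 values of 6.88 and 6.27 in the controls and 11.66 and 10.72 in the mutants. The log2 change was 4.62 ± 0.40 (SE, n = 2 libraries each; limma adjusted p = 6.46e-05). Ccnb3, the cyclin B3 gene of early meiosis on the X chromosome (mm10, chromosome X, 6979652 to 7041619), lay at 11.14 and 11.33 in the controls and 15.12 and 14.02 in the mutants. It rose 10.1-fold (log2 change 3.33 ± 0.32, limma adjusted p = 1.06e-04) from 2417 ± 231 to 26136 ± 13496 normalised reads (SD, n = 2 each). Mutant replicate 1 held 2.15 times the level of mutant replicate 2.

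Several of the rises are known from tissues other than the germ line. Mlxipl, the glucose-responsive transcription factor ChREBP (chromosome 5, 135089890 to 135138382), lay at 11.36 and 11.33 in the controls and 13.65 and 14.17 in the mutants, a 5.92-fold rise. Slc4a3, an anion exchanger, lay at 11.48 and 11.69 against 13.77 and 13.81, so that its libraries were close within each genotype, and rose 4.62-fold. Slc22a6, an organic anion transporter best known from the kidney, rose 6.99-fold, and Pkhd1, which encodes the ciliary protein fibrocystin, rose 12.7-fold. Clca4, of a family named for calcium-activated chloride channels, rose 21.8-fold from only 28.3 ± 12.6 normalised reads (SD, n = 2). Cd209c, a lectin gene, rose 6.03-fold, Npff, the precursor of a neuropeptide, 6.30-fold, and Ap1s3, a clathrin adaptor subunit, 6.69-fold. The remaining 2, Nxt2, a cofactor of mRNA export, and Pet2, rose 6.47-fold and 5.51-fold. Both lie on the X chromosome, as does Ccnb3, so that 3 of the 12 were X-linked.

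The 12 falls were far deeper than the rises. Adam5, a membrane protein gene of the sperm ADAM family, lay at 17.21 and 17.02 in the controls and 8.74 and 5.89 in the mutants, a log2 change of -9.81 ± 0.76 (limma adjusted p = 3.79e-05). Catsperb, an auxiliary subunit of the CatSper calcium channel of the sperm tail (chromosome 12, 101404653 to 101626009), lay at 14.24 and 14.02 against 5.80 and 3.57 (-9.45 ± 0.64). Fbp1, fructose-1,6-bisphosphatase of gluconeogenesis (chromosome 13, 62864753 to 62888282), lay at 16.09 and 15.75 against 7.54 and 4.23 (-10.04 ± 0.89). The wide separation of the genotypes in all 12 follows from the choice by gap. Within the mutants, replicate 1 lay above replicate 2 in all 12.

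Spata20 had a log2 change of -9.04 with mutant libraries only 1.35-fold apart, while those of Hrasls5, a lipid acyltransferase gene (-10.51), were 13.9-fold apart and those of Cmtm2b (-10.30) 9.24-fold. Hrasls5 and Cmtm2b had only 8.87 and 6.90 normalised reads in mutant replicate 2, where the lowest count kept was 6 reads. Their changes and spreads are uncertain to that extent. Slc22a16, a carnitine transporter gene, fell by 9.91 on the log2 scale, Zbbx, a B-box protein gene, by 9.27, Tex40, the zeta subunit of CatSper, by 9.18, Toporsl by 9.18 and Fam181a by 9.17. Kcnmb4os1, an RNA annotated antisense to the potassium channel subunit gene Kcnmb4, had the closest mutant libraries of the 12, at 11.83 and 11.66 in the controls and 3.02 and 2.98 in the mutants. The mutant values stand for 7.12 and 6.90 normalised reads, near the lowest count kept, so their closeness says little about spread. Whether the counting used strand is not stated, and reads of Kcnmb4os1 and of Kcnmb4 cannot be told apart. Leaving out mutant replicate 1 gave changes from -12.41 to -8.76 for the 12 falls, and leaving out mutant replicate 2 changes from -8.82 to -8.33. For the rises the same ranges were 2.23 to 4.16 and 2.19 to 5.09.

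**Figure D1:**
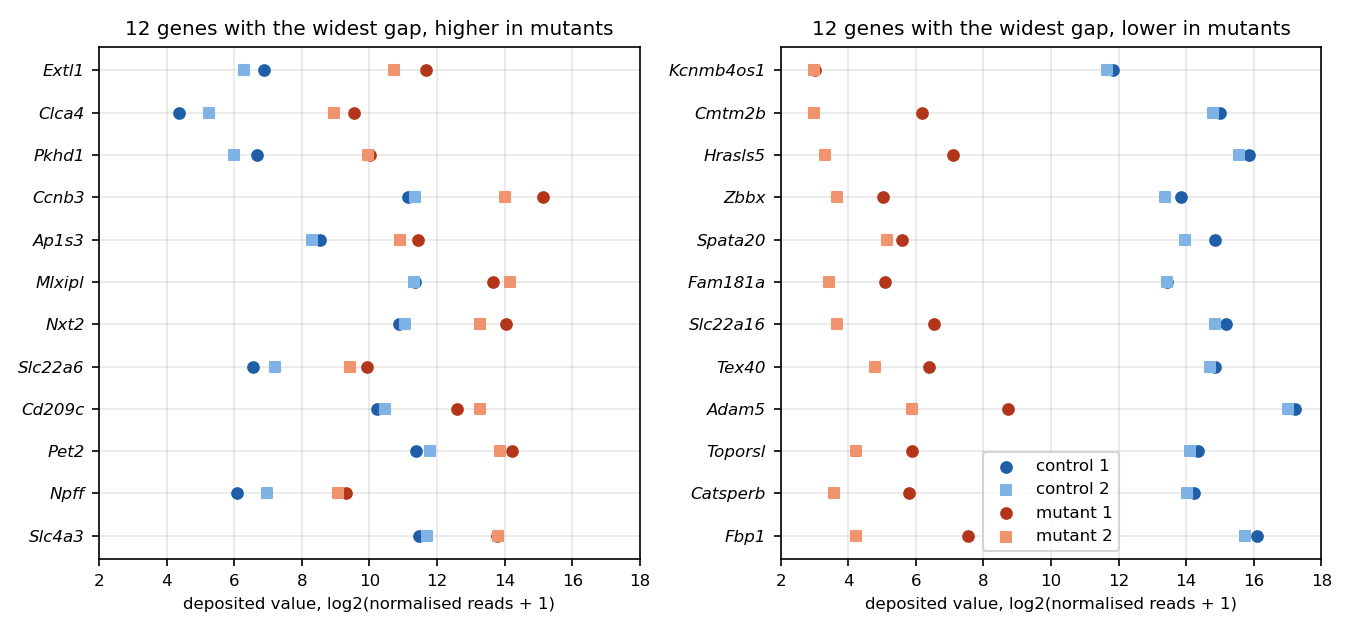
Deposited log2(normalised reads + 1) values of the 12 rises and 12 falls with the widest gap, 1 point a library, on the x axis, with genes as rows. Control libraries lie within about 1 log2 unit of each other in each gene, while mutant libraries of the falls spread from 2.98 and 3.02 in Kcnmb4os1 to 3.30 and 7.10 in Hrasls5.

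Promoter sequences were available for 8 of the 12 falls and 9 of the 12 rises, from RefSeq (GRCm38.p6), as the 250 bases before a start site. They were searched on both strands for the X-box bound by RFX factors, for the 4 six-letter words of MYB factors that start with CAAC or TAAC and end with GG or TG, and for the CRE palindrome TGACGTCA. The MYB factor A-MYB and RFX2 are known as activators of pachytene genes, and CRE sites as targets of CREM in spermatids. The 4 printed here are the 3 falls with a match, and Ccnb3 as the X-linked rise with the most matches, with matches in capitals and 5′ to 3′ on the gene's strand. Catsperb is chr12:101404423-101404672 (plus strand), Toporsl chr4:52596024-52596273 (plus), Zbbx chr3:75143773-75144022 (minus, at a RefSeq start inside the GENCODE gene) and Ccnb3 chrX:7041620-7041869 (minus).
Catsperb: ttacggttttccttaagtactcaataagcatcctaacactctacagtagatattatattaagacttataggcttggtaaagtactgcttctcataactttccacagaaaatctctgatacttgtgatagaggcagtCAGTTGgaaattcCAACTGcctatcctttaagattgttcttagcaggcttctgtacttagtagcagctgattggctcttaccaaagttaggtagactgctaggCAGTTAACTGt
Toporsl: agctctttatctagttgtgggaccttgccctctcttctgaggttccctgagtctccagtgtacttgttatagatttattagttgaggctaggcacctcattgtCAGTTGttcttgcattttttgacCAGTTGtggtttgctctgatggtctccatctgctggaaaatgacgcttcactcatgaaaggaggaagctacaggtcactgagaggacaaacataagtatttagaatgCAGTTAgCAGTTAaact
Zbbx: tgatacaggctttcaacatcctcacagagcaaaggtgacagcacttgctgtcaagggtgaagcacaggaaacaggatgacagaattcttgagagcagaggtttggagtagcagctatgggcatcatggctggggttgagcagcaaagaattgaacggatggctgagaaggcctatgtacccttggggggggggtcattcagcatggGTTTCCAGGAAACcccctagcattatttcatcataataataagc
Ccnb3: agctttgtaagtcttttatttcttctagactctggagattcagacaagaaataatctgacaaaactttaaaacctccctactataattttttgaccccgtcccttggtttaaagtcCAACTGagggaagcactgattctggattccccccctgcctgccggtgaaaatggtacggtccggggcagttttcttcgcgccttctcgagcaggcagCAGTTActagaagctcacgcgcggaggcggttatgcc

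Catsperb and Toporsl each held 4 MYB words. In Catsperb 2 of them, at 11 and 7 bases before the start, overlap on opposite strands. Zbbx held the only X-box, 44 bases before its start. MYB words stood in 2 of 8 fallen and 3 of 9 risen promoters, and in 23.7% of 32851 promoters, from which chromosome 18 was left out. The X-box stood in 1 of 8 and 0 of 9, and in 2.75% of these 32851. The CRE stood in 0 of 8 and 0 of 9, and in 1.55% of these 32851. A match is a description of letters and says nothing of binding.

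The X chromosome stood apart from the autosomes. Of its 688 measured genes 475 rose (69.0%) and 29 fell (4.22%), with a median log2 change of 0.99, against 24.6% and 34.3% of 16293 autosomal genes and a median of -0.0042. Among the autosomes the share higher ran from 22.5% on chromosome 12 to 27.0% on chromosome 19, and the median from -0.13 on chromosome 5 to 0.073 on chromosome 6. X-linked genes took 1.24% and 1.39% of gene reads in the controls and 4.001% and 4.17% in the mutants (exact permutation p = 0.333, the smallest that 2 against 2 libraries allow). Y-linked genes took 0.0223% and 0.0226% against 0.0696% and 0.0620% (exact permutation p = 0.333), and 9 of 11 rose. The autosomal median moved to 0.047 with TMM scaling, 0.59 with total gene reads and -0.11 with scaling by the families, and the X median to 1.04, 1.58 and 0.88. Autosomal calls were 7757 higher and 3714 lower on the total-read scale, and 2522 and 5436 when scaled by the families.

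**Figure D2:**
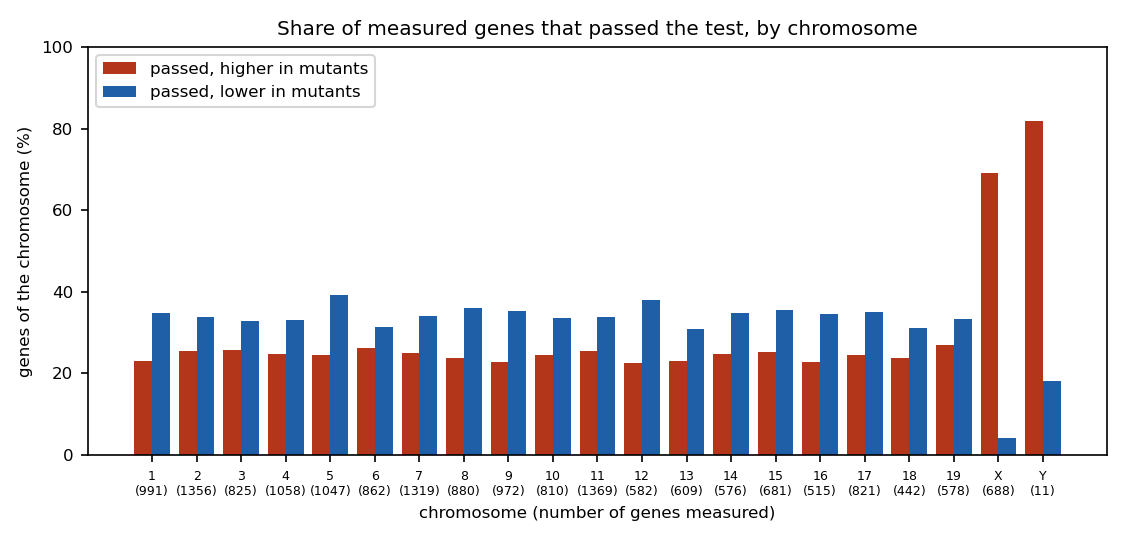
Percent of measured genes of each chromosome that passed the limma test as higher (red) or lower (blue) in the mutants, with the number of genes measured under each name. The X bar reaches 69.0% higher and 4.22% lower, against 22.5% to 27.0% higher on the autosomes.

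Germ line genes in several copies on the sex chromosomes, such as the melanoma antigen genes of the Mage family and the Xlr family, rose in 30 of 40 measured cases and fell in 4, with a median of 1.19. The share higher, 75%, stood beside 69.0% of all X-linked genes (median 0.99), and the difference was not tested. Magea6 lay at 6.88 and 6.54 in the controls and 8.96 and 8.87 in the mutants, a 4.64-fold rise, and Magea8 rose 4.27-fold. Copies of such families are near identical, so reads may be split between them and single members are uncertain. Mageb3, which lies on chromosome 2 in the annotation, fell by 3.14. Of 10 measured homeobox genes of the X-linked Rhox cluster 8 rose and 0 fell (median 1.41), and 5 were higher without mutant replicate 1 or without mutant replicate 2. With scaling by the families 6 rose and 1 fell. The share of Rhox genes higher in the main fit, 80%, also stood beside 69.0% of all X-linked genes, untested against it. Rhox8, a Sertoli cell gene, rose 3.14-fold and Rhox1 3.31-fold.

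A few X-linked genes fell steeply, and 4 of them are named here after their values were seen. Akap4, the main anchoring protein of the sperm fibrous sheath (chromosome X, 7067519 to 7078609), lay at 14.26 and 13.11 in the controls and 5.59 and 4.44 in the mutants (-8.68 ± 0.49). Its start lies 25.9 kb from the start of Ccnb3, which is on the opposite strand and moved the other way. Tsga8, a spermatid chromatin gene, fell by 6.92, Ctag2 by 6.11 and Ssxb2, a member of a multicopy family, by 4.99. They were taken by their gap, so that both mutants lay below both controls follows from the choice. In each of these genes control replicate 1 was the higher control.

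Genes of the mature sperm fell in most cases. Of 26 measured genes of sperm to egg binding and the zona pellucida 25 fell and 0 rose (median -5.33), with Acr, the acrosomal protease acrosin, at 14.20 and 13.82 in the controls and 5.61 and 4.50 in the mutants. Of 22 ion channel and transporter genes of sperm 16 fell and 1 rose (median -4.77). The remaining 5 did not pass, and the rise was P2rx2, an ATP-gated channel gene, at 11.73 and 12.05 against 12.92 and 12.86, which rose 2.01-fold. Of 19 serine proteases and their inhibitors 14 fell and 2 rose (median -4.26), 1 rising without mutant replicate 2 or either control. Prss39 fell by 8.81 and Prss54 by 8.53, while Serpina5, the protein C inhibitor, rose 1.75-fold.

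Of 45 measured kinases, phosphatases and anchoring proteins of germ cells 31 fell and 5 rose (median -1.78), and 1 rose without mutant replicate 2, 2 without control replicate 1 and 3 without control replicate 2. Dusp13, a dual specificity phosphatase gene, lay at 12.51 and 11.46 against 5.25 and 5.23 and fell by 6.75. The mutants were alike in this gene, while the controls were 2.07-fold apart.

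Sperm use their own versions of many housekeeping enzymes, encoded by genes that work only or mainly in the germ line beside a widely expressed relative. Of 46 such pairs 40 were measured. Of the 40 germ line forms 35 fell, 3 rose and 2 did not pass (median -4.21). Of the 38 widely expressed forms 19 rose, 8 fell and 11 did not pass (median 0.52, and 1.11 with total gene reads or 0.41 with scaling by the families). With total gene reads 28 of them rose and 4 fell. In 19 pairs the germ line form fell and its relative rose. The X-linked relatives Pdha1, Cox7b, Rpl10, Cetn2, Cstf2, Prps1, Smc1a and Stag2 were among those that rose. Gyk and Rpl39, also X-linked relatives, did not pass. On the whole X chromosome 69.0% of genes rose, against 24.6% of autosomal genes. The part of the X chromosome in the rises of the relatives was not tested.

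Cox8c, the germ line form of a cytochrome c oxidase subunit, lay at 15.48 and 15.50 in the controls and 8.77 and 8.42 in the mutants, and its relative Cox8a at 11.45 and 11.85 against 12.78 and 12.43. The log2 changes were -6.90 ± 0.16 and 0.95 ± 0.19. Cetn1, a centrin of sperm, fell by 8.96 while the X-linked Cetn2 rose (1.21). Prps1l1, a phosphoribosyl pyrophosphate synthase, fell by 8.62 while Prps1, also X-linked, rose (1.17). Ccna1, the meiotic cyclin A1, lay at 14.18 and 13.89 against 7.45 and 5.47, and Ccna2, its mitotic relative, rose from 11.74 and 11.73 to 12.69 and 12.61. Cyct, the testis cytochrome c, fell by 4.60 while Cycs rose (0.89), and Ppp3r2, a calcineurin subunit of sperm, fell by 8.99 while Ppp3r1 rose (0.88).

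In 7 pairs both forms fell. Ldhc, lactate dehydrogenase of sperm, lay at 18.48 and 18.30 in the controls and 10.95 and 9.57 in the mutants, and Ldha, the muscle form, at 16.94 and 16.68 against 12.40 and 12.07. Both groups of libraries were separate in both genes, and the log2 changes were -8.13 ± 0.38 and -4.58 ± 0.16. Ybx2 and Ybx3, Y-box proteins that bind stored mRNA, had log2 changes of -4.81 and -4.69, and Tbpl1 and Tbp, of the TATA-binding family, lay 7.69-fold and 4.01-fold lower. Pabpc1, the poly(A)-binding protein, fell by 2.35 beside its retrogene Pabpc2 (-10.68). Reads of retrogenes and their parents can be shared where the sequences are close, and single pairs are uncertain to that extent.

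The 3 germ line forms that rose were Taf7l, Rad21l and Dmc1. Taf7l, for a TFIID subunit encoded on the X chromosome, lay at 13.52 and 13.62 in the controls and 15.38 and 15.20 in the mutants (1.72 ± 0.12), while Taf7 (0.14) did not pass the test. Rad21l, a meiotic cohesin subunit, rose (1.46 ± 0.18), as did Rad21 (0.67). Dmc1, the meiotic recombinase, rose (1.08 ± 0.15).

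**Figure D3:**
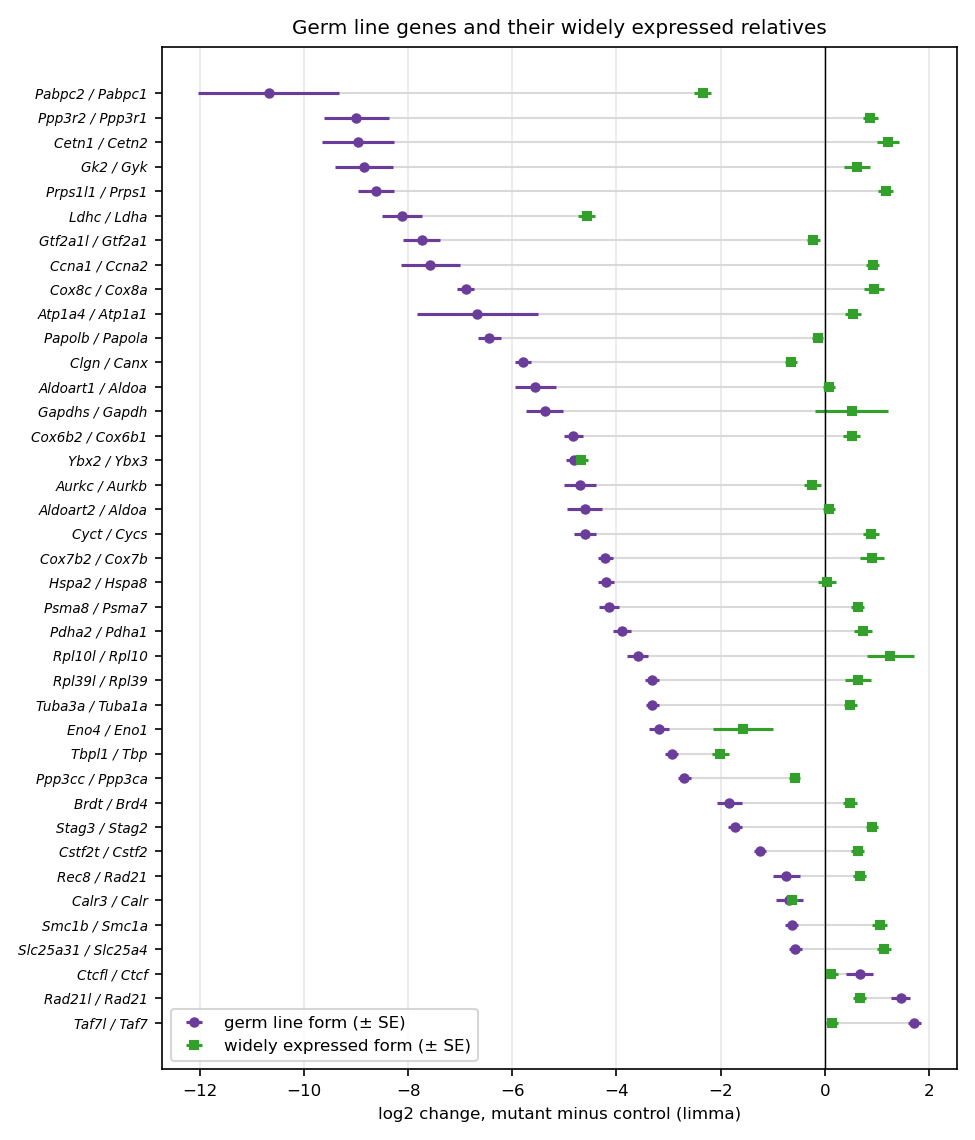
Log2 change, mutant minus control, with its standard error for the germ line form (purple circles) and the widely expressed form (green squares) of 39 of the 40 pairs, sorted by the germ line form. The germ line forms run from -10.68 for Pabpc2 to 1.72 for Taf7l, while the widely expressed forms run from -4.69 for Ybx3 to 1.26 for Rpl10.

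Of 31 genes of glycolysis, lactate and glucose transport 13 rose and 15 fell (median 0.088, and -0.017 with scaling by the families), and 7 rose without control replicate 1. With scaling by the families 8 rose and 15 fell. Pgam2, the phosphoglycerate mutase known from muscle, lay at 15.78 and 15.45 against 8.17 and 6.76 (-8.15 ± 0.41), and Slc2a5, the fructose transporter of sperm, fell by 7.43. Pdk1, which inhibits pyruvate dehydrogenase, lay at 12.44 and 12.58 against 13.82 and 14.05 (1.42 ± 0.14), and Slc2a1, the common glucose transporter, rose 2.43-fold. These 4 genes were chosen by their gap between the genotypes, so their separate libraries follow from the choice.

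Nuclear genes of oxidative phosphorylation moved less and more evenly. Of 60 measured 45 fell and 6 rose (median -0.86), and 3 rose without control replicate 1. Scaled to total gene reads, as the scale, 19 fell and 12 rose (median -0.26), so the size of the fall rests on the scaling. Uqcrc1, a core subunit of complex III, lay at 15.33 and 15.21 against 13.54 and 13.33 (-1.84 ± 0.13), and Ndufv2, of complex I, fell by 1.82. The steepest of the 60 was thus less than 4-fold lower, while germ line forms of the same complexes such as Cox6b2 (-4.83) and Cox7b2 (-4.22) fell further.

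Cell cycle genes moved in both directions. Of 59 cyclins, kinases, checkpoint and retinoblastoma pathway genes 29 fell and 15 rose (median -0.40). On the total-read scale 24 rose and 19 fell (median 0.20). Aurkc, the meiotic Aurora kinase, lay at 11.17 and 11.15 against 6.72 and 6.21 (-4.69 ± 0.31). Aurkb had -0.24, which did not pass and was 0.35 with total gene reads. Cdc25b, a phosphatase that activates cyclin-dependent kinases, lay at 9.89 and 9.91 against 11.04 and 11.09 and rose 2.24-fold.

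DNA replication genes went both ways, with 15 of 44 higher (34.1%) and 17 lower (38.6%), and a median of 0.022. These shares were near those of all genes, 26.4% and 33.1%. With total gene reads 24 were higher and 8 lower (median 0.62), and with scaling by the families 6 and 16 (median -0.084). Without control replicate 1, 7 were higher. Pola1, the catalytic subunit of DNA polymerase alpha on the X chromosome, rose 2.07-fold. Rpa1, of the single-strand binding complex that also coats meiotic breaks, lay at 15.42 and 15.27 against 13.01 and 13.13 (-2.28 ± 0.12). Chaf1a, of the chromatin assembly factor, fell by 2.42.

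Apoptosis genes were mostly higher. Of 41 measured 25 rose and 6 fell (median 0.70), a share higher of 61.0% against 26.4% of all genes. Without control replicate 1, 16 rose and 3 fell, and 3 fell without control replicate 2. Scaled to total gene reads, 31 rose and 3 fell. Bik, a BH3-only activator of cell death, lay at 9.29 and 9.24 in the controls and 11.01 and 10.50 in the mutants (1.49 ± 0.25, limma adjusted p = 0.00187). Diablo, a mitochondrial antagonist of caspase inhibitors, lay at 16.17 in both controls and at 13.88 and 13.66 in the mutants, 5.26-fold lower, and Bad, another BH3-only gene, was 4.47-fold lower. Activators of cell death thus stood among both the rises and the falls.

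Of 59 measured genes of chromatin silencing and retrotransposon restriction 19 rose (32.2%) and 24 fell (40.7%), beside 26.4% and 33.1% of all genes. The median was 0.028, and -0.078 with scaling by the families, but with total gene reads 32 rose and 14 fell (median 0.62). Morc2b, a MORC ATPase gene of the germ line, lay at 15.94 and 15.66 against 7.64 and 4.89 (-9.54 ± 0.75), and Kdm4d, a histone H3 lysine demethylase of the testis, fell by 3.91. Kdm6a and Suv39h1, a demethylase and a methyltransferase of histone H3, rose 2.72-fold and 2.67-fold, and both lie on the X chromosome. Their libraries were within 1.11-fold of each other in each genotype.

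Histone variants and proteins of sperm chromatin were lower in 24 of 44 and higher in 6 (median -0.73), and 14 each way with total gene reads. H2afy3, annotated as a processed pseudogene, fell by 7.25 and Tnp1, a transition protein that replaces histones, by 6.21. In Tnp1 the controls lay at 10.82 and 9.97 and the mutants at 4.57 and 3.79. H2bfm, an X-linked H2B variant gene, rose 3.18-fold, and Cenpa, the centromeric histone H3, 2.13-fold. Canonical histone mRNAs have no poly(A) tail, and how the RNA was selected is not given in the sources used here.

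Of 65 RNA-binding and translation genes 30 fell and 20 rose (median -0.26), with 10 rising without control replicate 1. On the total-read scale 30 rose and 22 fell (median 0.33), against which scaling by the families gave 10 rose and 30 fell. Papolb, the testis poly(A) polymerase, lay at 15.97 and 15.64 against 9.66 and 9.06 (-6.44 ± 0.22), and Pabpc6 fell by 5.92. Rbmx and Rbm3, both X-linked, rose 2.98-fold and 2.32-fold. Of 53 genes of ubiquitin ligation and the proteasome 30 fell and 14 rose (median -0.71), but with total gene reads 24 fell and 22 rose (median -0.11). March10 and March11, membrane-bound ubiquitin ligases of spermatids, fell by 9.26 and 8.79. Usp26, an X-linked ubiquitin protease, lay at 12.26 and 12.27 against 14.10 and 13.81 and rose 3.22-fold, and Uchl1, a ubiquitin hydrolase of spermatogonia, rose 2.25-fold.

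Of 83 signalling ligands and receptors 40 rose and 6 fell (median 0.72), and 25 rose without control replicate 1. Ret, the receptor of GDNF on spermatogonial stem cells, lay at 9.41 and 9.17 against 10.66 and 10.88 and rose 2.80-fold. Inha, the inhibin subunit made by Sertoli cells, lay at 14.75 and 14.87 against 15.93 and 16.08 and rose 2.29-fold. Rxfp2, the receptor of insulin-like 3, lay at 10.83 and 10.52 against 5.28 and 4.93 (-5.57 ± 0.35), and Tgfa was 4.63-fold lower.

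Of 29 genes of the retinoid pathway 12 rose and 7 fell (median 0.67), and 7 rose without control replicate 1. With total gene reads 20 rose and 5 fell, against which scaling by the families gave 6 and 7. Rdh11, a retinol dehydrogenase, lay at 15.07 and 14.81 against 12.04 and 11.49 (-3.18 ± 0.20), and Lrat, which stores retinol as esters, fell by 2.57. Aldh1a3, which makes retinoic acid, rose 1.85-fold and Rara, a retinoic acid receptor gene, 1.83-fold.

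Junction genes of the blood-testis barrier, which Sertoli cells build, rose in 20 of 35 cases and fell in 2 (median 0.69). F11r, encoding the adhesion molecule JAM-A, lay at 12.50 in both controls and at 13.90 and 14.13 in the mutants (1.52 ± 0.13), and Cldn11, the main claudin of the barrier, rose 2.15-fold. Pvrl3, the nectin gene expressed on spermatids, was 12.4-fold lower.

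Extracellular matrix genes rose in 20 of 46 cases and fell in 4 (median 0.47), but their count rested on single libraries. It was 12 without mutant replicate 2 and 9 without control replicate 1, while those lower were 2 without mutant replicate 1, 1 without control replicate 1 and 2 without control replicate 2. Scaled to total gene reads, 41 rose and 0 fell. Lama5 and Lama1, laminins of the basement membrane, rose 2.21-fold and 1.91-fold. Of 29 cholesterol synthesis and transport genes 11 rose and 5 fell (median 0.32), with 4 rising without control replicate 1. On the total-read scale 18 rose and 4 fell, against which scaling by the families gave 3 and 5. Fdft1, squalene synthase, lay at 14.83 and 14.45 against 11.66 and 11.49 and was 8.35-fold lower, Sqle, the next enzyme, was 2.92-fold lower, and Abcg1, a cholesterol exporter gene, rose 2.84-fold.

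Immediate early and stress response genes rose in 25 of 45 cases and fell in 5 (median 0.77). Fos lay at 6.59 and 7.23 in the controls and 9.04 and 8.75 in the mutants, a 3.96-fold rise, and Gadd45g rose 2.51-fold. Klf4, which is expressed in round spermatids as well as in stressed cells, was 3.68-fold lower, and Ier5 2.26-fold lower. Genes of this class respond within minutes to tissue handling, and no time of dissection is given in the sources used here.

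**Figure D4:**
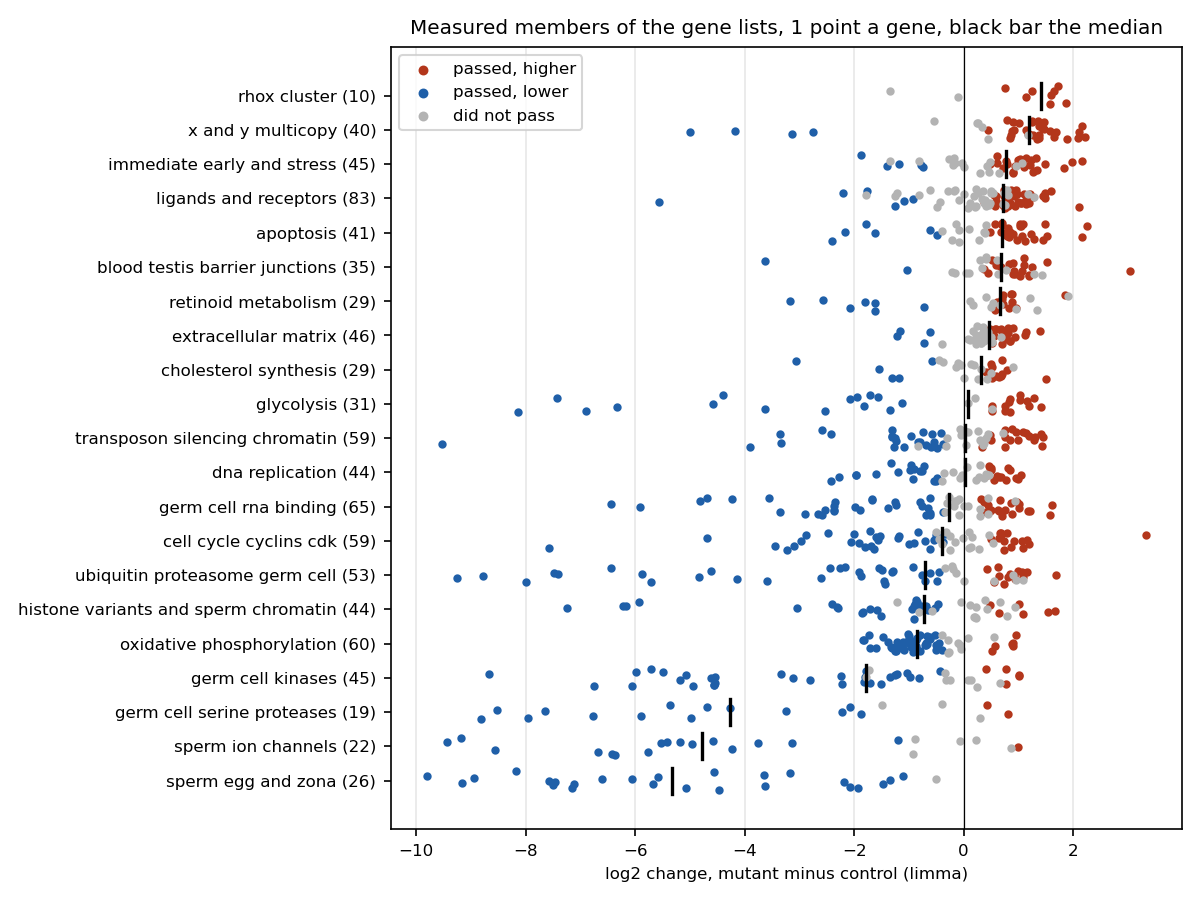
Log2 change, mutant minus control, of each measured member of 21 gene lists, 1 point a gene (red passed and higher, blue passed and lower, grey did not pass), with the list median as a black bar. Medians run from -5.33 for sperm to egg genes to 1.41 for the Rhox cluster.

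Genes known mainly by clone or structural names were also counted. Of 172 genes in a first group of RIKEN clone names, those from an adult testis library, 146 fell (84.9%) and 7 rose (median -3.40), and of 222 in a second such group 167 fell and 16 rose (median -2.68). The other 694 RIKEN names were near the background, with 178 lower (25.6%) and 154 higher (22.2%), but with total gene reads 131 were lower and 325 higher. Among 140 coiled-coil genes named Ccdc 90 fell and 23 rose (median -1.15; 73 and 41 with total gene reads), and among 22 named Spata 18 fell and 1 rose (median -4.70; 17 and 4 with total gene reads). Solute carriers went the other way more often, with 112 of 325 higher and 69 lower (median 0.36), and 189 and 40 with total gene reads. Of 23 olfactory receptor genes 9 rose and 0 fell (median 1.17), with 5 higher without control replicate 1 and 8 higher and 2 lower with scaling by the families, at read levels that sum to at most 0.0227% of gene reads in any library.

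Repeat families passed less often than genes, with 42 of 888 higher (4.73%) and 64 lower (7.21%). These counts fell to 17 and 26 without control replicate 1 and to 15 and 36 without control replicate 2. With total gene reads as the scale the split turned, to 374 higher and 39 lower, and families fitted apart from the genes gave 113 and 126. Families together took 2.51% and 2.34% of all counted reads in the controls and 5.52% and 5.12% in the mutants (exact permutation p = 0.333). The mutants thus agreed in the total while they differed in its makeup. L1Md families, young LINE-1 retrotransposons, made up 7.99% and 7.22% of family reads in the controls, 33.8% in mutant replicate 1 and 16.7% in mutant replicate 2 (exact permutation p = 0.333). IAP families took 4.59% and 4.97% in the controls, 3.94% in mutant replicate 1 and 8.70% in mutant replicate 2 (exact permutation p = 1), so that only mutant replicate 2 lay above the controls.

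Of 6 L1Md families 4 rose and 0 fell (median 1.78), with 3 higher without mutant replicate 1, 6 without mutant replicate 2, and 2 without control replicate 1 or without control replicate 2. L1Md_T lay at 16.46 and 16.10 in the controls and 19.75 and 19.00 in the mutants, and L1Md_Gf at 11.78 and 11.22 against 14.85 and 14.35. L1Md_A lay at 15.30 and 14.95 against 19.23 and 16.65, which took 11.6% of family reads in mutant replicate 1 and 2.03% in mutant replicate 2. Leaving out mutant replicate 1 gave a log2 change of 1.52, and leaving out mutant replicate 2 gave 4.10. The adjusted p (limma) was 0.0444 with all 4 libraries, 0.091 without control replicate 1 and 0.132 without control replicate 2. L1Md_F2, of the older F types, lay at 16.84 and 16.51 against 17.61 and 17.25 and passed as higher (log2 change 0.75 ± 0.18, limma adjusted p = 0.0374), a call lost on leaving out mutant replicate 1, control replicate 1 or control replicate 2. Neither L1Md_F (0.68) nor L1Md_F3 (0.30) passed.

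Of 25 IAP families 7 rose and 3 fell (median 0.39), and 3 rose and 2 fell without control replicate 1, as also without control replicate 2. Scaled to total gene reads, 13 rose and 3 fell. IAPEz-int lay at 16.03 and 15.89 in the controls and 16.69 and 18.45 in the mutants, or 1.81%, 1.87%, 1.99% and 7.09% of family reads, and did not pass (1.61 ± 0.48, limma adjusted p = 0.0774). MMERVK10C-int, of another ERVK group and named here after its values were seen, took 0.952% and 1.14% against 2.16% and 4.86%. IAPA_MM-int (5.40 and 7.93 in the mutants) and IAPLTR1_Mm (7.21 and 8.66) were also higher in mutant replicate 2, and neither passed. Other abundant IAP families had the order of L1Md_A or differed little. IAPEY4_I-int, which rose, lay at 14.34 and 14.44 in the controls and 15.98 and 15.39 in the mutants (1.29 ± 0.19). IAPLTR3-int, which fell, lay at 15.87 and 15.77 against 13.66 and 13.11, and IAPEY3-int (-0.42) did not pass. Reads of near-identical copies cannot be assigned to single insertions, and families of similar sequence can share them.

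Among families named by their gap, RLTR10B2 was tight in both groups, at 9.20 and 9.39 against 11.68 and 11.62. Charlie22a, a DNA transposon family with few reads, rose from 5.19 and 4.50 to 8.06 and 8.13. MER91C (3.36) and Tigger20a (2.70) also rose, but neither passed without mutant replicate 2, nor Tigger20a without control replicate 2. On the falling side RMER21B lay at 12.88 and 12.75 against 9.29 and 9.53 (-3.40 ± 0.18), RLTR13D6 at 13.04 and 13.02 against 9.98 and 10.14 (-2.97 ± 0.15), and MLT1G3 at 11.61 and 11.01 against 8.40 and 7.97 (-3.13 ± 0.30). RLTR9A2, IAPLTR3 and MER92C had log2 changes of -3.81, -4.35 and -3.90. These families were chosen by their gap, so that both mutants lay below both controls in each follows from the choice.

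**Figure D5:**
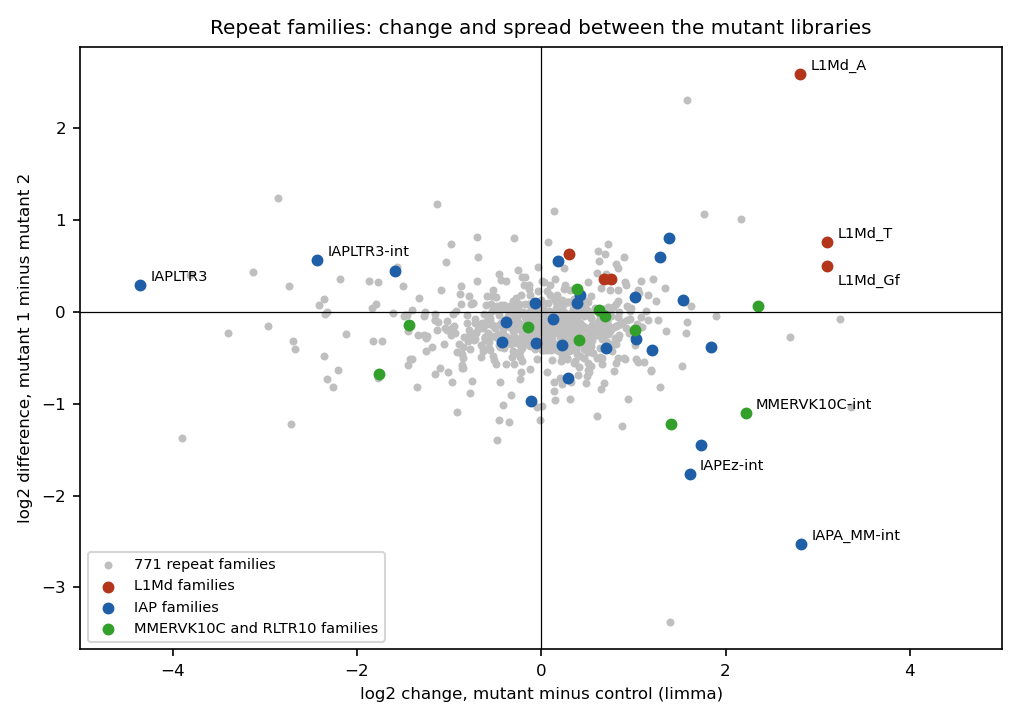
Log2 change, mutant minus control, on the x axis and log2 difference between mutant replicate 1 and mutant replicate 2 on the y axis, for 771 repeat families with at least 50 normalised reads on average. L1Md_A lies at the upper right (2.81, 2.58), and IAPEz-int (1.61, -1.77) and IAPA_MM-int (2.82, -2.53) at the lower right.

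The spread between libraries of a genotype was larger in the mutants. Among genes with at least 200 reads in a library, the log2 difference between the mutant libraries had a standard deviation of 0.53 over 14334 genes, and that between the control libraries 0.40 over 14393. More than 2-fold apart were 587 genes in the mutants (4.10%) and 457 in the controls (3.18%), and more than 4-fold apart 151 and 31. Median distances were nearer, at 0.20 and 0.17. Each genotype gives 1 such difference, so the 2 spreads were not tested against each other.

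The steeply fallen genes differed between the mutants in 1 direction more often than the rest. Of the 1461 genes at least 8-fold lower (8.5% of those tested), 1066 (73.0%) were higher in mutant replicate 1 than in mutant replicate 2, with a median difference of 0.33, while 53.7% of all genes were. Pachytene markers differed the same way by a median of 0.51 and spermatid markers by 0.63. Over all genes, with no minimum of reads, 1261 were over 2-fold apart between the mutants, and of these 432 passed as lower, 80 as higher and 749 did not pass.

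Other genes differed most between the mutants. Spink8, a protease inhibitor gene of the epididymis, lay at 13.45 in mutant replicate 1 and 5.26 in mutant replicate 2, 292-fold apart, and at 10.24 and 7.81 in the controls. Acta1, skeletal muscle actin, lay at 11.27 and 3.98, against 4.46 and 5.16 in the controls, while the 6 measured skeletal muscle markers had a median difference of -0.032 between the mutants. Ptgs2, the inducible cyclooxygenase of prostaglandin synthesis, lay at 11.11 and 3.98, against 3.80 and 2.63. None of these passed the test, and mutant replicate 2 lay below both controls in Spink8 and Acta1 and near them in Ptgs2.

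Akr1b7, an aldose reductase relative known from the vas deferens and adrenal, lay at 14.21 and 7.97 in the mutants (75.6-fold), and Serpina1f at 11.68 and 4.07 (195-fold). Sost, a secreted WNT antagonist, was 108-fold and Pcp4, a calmodulin-binding protein gene, 82.5-fold higher in mutant replicate 1. Hist2h2bb went the other way, 54.5-fold higher in mutant replicate 2. It is a canonical histone gene with near copies, so its value is uncertain.

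Of 27 marker genes of the duct epithelium beside the testis 9 were measured, and the lowest read number of any measured gene in a library was 5 or 6, so none of the 9 was at 0. The remaining markers were not analysed here. The median difference between mutant replicates 1 and 2 was 2.65, with Krt18, a keratin gene named like the others of this paragraph after its values were seen, at 9.35 and 5.53 and at 7.78 and 5.84 in the controls. Together they took 0.0238% of gene reads in mutant replicate 1, 0.00786% in mutant replicate 2, and 0.0150% and 0.0129% in the controls. Most of this came from Aqp9 and Epcam in the controls, from Spink8 and Epcam in mutant replicate 1, and from Epcam in mutant replicate 2. The members did not move as 1 class: Epcam, an epithelial adhesion gene, lay at 12.83 and 12.68 in the mutants and Adam28 at 7.46 and 7.71, while Aqp9, a water channel gene that fell, lay at 8.85 and 4.84. The 10 markers of peritubular myoid cells, the contractile cells around the tubules, differed by a median of 1.31, and held 0.153% and 0.0757% of gene reads in the mutants, the controls having 0.0326% and 0.0458%. The part of these tissues in the spread was not tested.

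Between the controls the widest differences were in other genes. Cfd and Car3, both abundant in fat, lay at 8.63 and 2.82 and at 9.73 and 4.84 in control replicates 1 and 2, and the 7 measured fat pad markers had a median difference of 1.91. Hal, histidine ammonia-lyase, was 68.3-fold and Abcb5 39.5-fold higher in control replicate 1, where Grin2b, a glutamate receptor subunit, lay at 9.04 against 3.40. Ttc22 was 49.7-fold higher in control replicate 2. Leydig cell markers differed the other way, by a median of -1.08, taking 0.0489% of gene reads in control replicate 1 and 0.0988% in control replicate 2. Spermatid markers were higher in control replicate 1 by a median of 1.04, at 0.113% against 0.0755% of gene reads. Akap4 and Tnp1 above are members of that list and had that order, as did Dusp13, which is not a member.

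In repeat families the median distance was alike in the mutants and the controls, at 0.220 and 0.223, and the widest distances were in the mutants. Among families with at least 200 reads in a library, 11 of 604 were over 2-fold apart in the mutants and 1 of 560 in the controls, which was BGLII_Mus at 8.45 and 7.18. In the mutants the widest were ORR1G-int (10.4-fold), L1Md_A (5.99-fold), IAPA_MM-int (5.77-fold), RLTR46B (4.94-fold) and IAPEz-int (3.40-fold). Of these 5, L1Md_A and RLTR46B were higher in mutant replicate 1 and the other 3 in mutant replicate 2.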

How the data were processed

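The 4 libraries of 20 dpp testis were grouped by genotype and age in the labels. The submitters' processing notes list TopHat2 2.0.6, HTSeq 0.6.1, Bowtie 1.0.0 and the build mm10 without saying what each did. Annotation, strand setting and treatment of multiply mapped reads: not given in the sources used here. The authors deposited log2 values of genes and of repeat families, without header lines. Undoing the log2 and the addition of 1 and multiplying by 1 factor per library gave whole reads (tolerance 0.01) for 100% of values, and these factors matched those that the median-of-ratios method gives for both tables joined. Reads on genes came to 88996175 and 155742823 in the controls and 127325877 and 95154320 in the mutants. The lowest count in a library was 5 or 6. Genes under that in any library were not analysed here.

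limma 3.58.1 in R 4.3.3 (eBayes with a trend) was fitted to the deposited values of genes and families together, with no covariate. Residual degrees of freedom were 2 and prior ones 5.21. Benjamini-Hochberg adjustment ran over 17194 genes and over 888 families separately, at 0.05. Because 1 was added before the log2, changes of genes with few reads come out too small. Shares of reads were compared by exact two-sided permutation over the 4 libraries in Python 3.11.15 with SciPy 1.17.1, where the smallest p is 0.333. Tested on simulated counts of 17194 genes, the fit called 85% of the 2-fold and 100% of the 4-fold changes put in, and 8 unchanged genes. Unlike the data, the simulation changed few genes, equally in both directions, with a fixed spread. Its rates are therefore not those of the data.

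Members, gene lists, pairs and name patterns were chosen with earlier results of these data known. Genes named had an adjusted p under 0.05, 5 CPM or more in whichever genotype was higher and no Gm or Rik name. They were the 12 rises and 12 falls with the widest gap between the nearest libraries, up to 2 rises and 2 falls of each list, any of the pairs, passed or not, and the widest differences within a genotype (8 and 6 genes, 6 and 4 families) with at least 200 reads in 1 library. Families named were the 6 rises and 6 falls with the widest gap and at least 50 normalised reads, the L1Md families and the 4 most abundant IAP families. Coordinates come from GENCODE M21, with 16333 symbols matched directly, 659 through RefSeq synonyms and 202 unmatched. A few members of the lists and pairs are not reported here by name. Promoters come from RefSeq (GRCm38.p6). Where it lists 2 starts, the first was used. Alternatives covered scaling, pseudocount, a filter, the spread model, families fitted apart, each library left out and the replicate number as a block. With 1 library left out, the lone library of its group is assumed to vary like those of the other.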

Additional observations from a re-analysis of the deposited data

How the results depend on the processing

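Scaling decided the split of calls. With total gene reads as the scale 8428 genes were higher, and 374 families were higher and 39 lower, while with scaling by the families 2972 genes were higher. Families fitted apart from the genes gave 113 higher and 126 lower. Leaving out 1 library gave 2945 to 4046 higher and 4727 to 5619 lower genes, and 15 to 54 higher and 26 to 62 lower families. The lowest counts came without control replicate 1, except 15 higher families, without control replicate 2. Of 177 named features that passed, 27 lost their call in at least 1 alternative and 2 changed direction, both with total gene reads: Slc25a31 (0.031) and Ppp3ca (0.016). Features that did not pass also turned. With total gene reads Gtf2a1 had 0.37, Papola 0.46, Aurkb 0.35 and IAPEY3-int 0.17. With scaling by the families Aldoa had -0.017 and Hspa8 -0.059. With 1 library left out Gapdh ran from -0.50 (without mutant replicate 2) to 1.53, Hspa8 from -0.20 (without mutant replicate 2) to 0.30 and L1Md_F3 from -0.018 (without mutant replicate 1) to 0.61, and Gapdh had -0.20 without control replicate 2. The cause was not tested. The replicate number as a block gave 4447 higher and 5612 lower genes and 44 and 60 families. Same-numbered libraries deviated together with r = 0.044 over 16266 genes, so the number was not taken to pair them.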
